A study of Mus musculus with 9 samples.

Results

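The genes described here encode trichohyalin and 6 keratins of the inner root sheath, the epithelial sleeve that surrounds and moulds the growing hair inside its follicle. They are Tchh, the type I keratin genes Krt25, Krt27 and Krt28, and the type II keratin genes Krt71, Krt72 and Krt73. They were taken as the probe sets whose platform annotation gives 1 of these symbols and no other, which left 7 probe sets of 45037, 1 for each gene, and 7 of 18193 genes tested. No probe set naming several genes held any of these symbols.

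The samples were trunk epidermis of newborn mice born to heterozygous Alox12b knockout parents, lifted off the dermis after 30 s in buffered saline at 56 °C. RNA of 4 mice labelled Alox12b-KO and 5 labelled wildtype went onto 9 Affymetrix U430 2.0 arrays of the mouse genome, 1 array a mouse. Alox12b encodes the 12R-lipoxygenase that oxidises linoleate in epidermal acylceramides, and loss of it opens the skin barrier. The labels give the strain 129S6 for wildtype, and no source used here gives that of the knockout mice. The labels call the samples of a group biological replicates, and no treatment differed between the groups.

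A keratin filament is built from 1 type I and 1 type II chain, so the sheath keratins work as partners. Trichohyalin fills the sheath cells as granules, and after enzymes convert its arginines and cross-link it, it binds the filaments into a rigid cylinder. The sheath hardens before the hair shaft does and is shed as the hair emerges. Mutations of Krt71 give mice curly whiskers and coats.

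On all arrays the sheets had the keratins of the upper epidermis at the top of the scale, with Krt1 at 14.06 in knockout and 14.02 in wildtype and Krt10 at 14.17 and 14.24, in log2 units as for every level here. Array medians lay between 3.14 and 3.31. Alox12b read 11.13 ± 0.33 (SD, n = 4) in knockout and 10.91 ± 0.29 (SD, n = 5) in wildtype. The labels do not give the deleted part of the gene, so this probe set checks nothing about the labels. Xist, the RNA of the inactive X chromosome, read 9.99 to 10.20 on the knockout arrays and 10.95 on wildtype array 4. On the other wildtype arrays it read 3.23 to 4.32. Eif2s3y, a gene of the Y chromosome, read 2.00 to 2.43 on the knockout arrays and 2.11 on wildtype array 4. On the other wildtype arrays it read 7.67 to 8.04. Apart from wildtype array 4, the Xist level, sex as read from these genes and the genotype cannot be told apart. On wildtype array 4 all 7 genes lay within the range of the other 4 wildtype arrays. In genes of other organs, 14 measured, mean levels ran from 2.12 to 5.07 with a median of 3.09, which gives the readings where no transcript should be present.

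A lower mean in knockout was found for 6 of the 7 genes, trichohyalin and all 3 type II keratins among them, where 46.5% of all genes had one, and none of the 7 passed the test. Mean differences ran from -1.36 for Tchh to 0.15 for Krt28, with a median of -0.81 where the median over all genes was 0.02. Over the 9097 genes kept by a filter on level, which removes Krt28 and Krt73, that median was -0.10. In limma with Benjamini-Hochberg adjustment over all genes, 0 of 7 were called lower at an adjusted p of 0.05, where 0.731% of all genes were, and 0 of 7 were called higher, where 0.511% were (1.24% in either direction). At an unadjusted p of 0.05, 3 of 7 were lower, where 10.7% of all genes were, and 0 of 7 were higher, where 7.08% were (17.8% in either direction). These 3 were Tchh, Krt73 and Krt27. In bulk epidermis, fewer sheath cells and less RNA per sheath cell cannot be told apart.

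**Figure D1:**
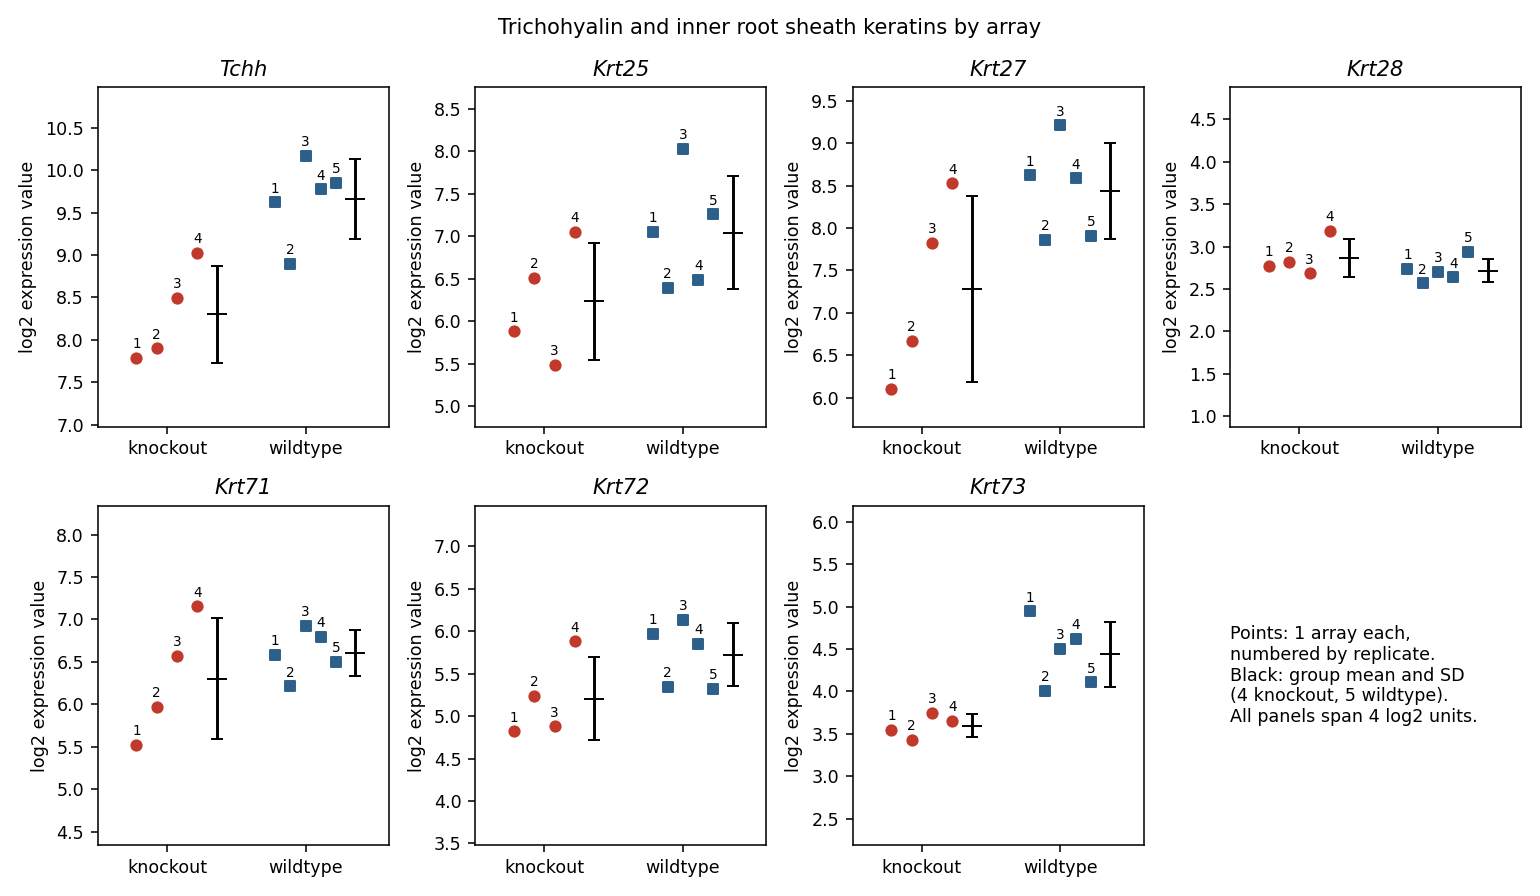
Log2 expression value (y axis) of each gene on each array, knockout as circles and wildtype as squares numbered by replicate, with the group mean and SD in black. Knockout array 1 is among the lowest 2 for every gene but Krt28, which stays between 2.57 and 3.19, knockout array 3 is lowest for Krt25 at 5.48, and the groups are apart for Krt73 alone.

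Trichohyalin had the largest mean difference of the 7. Tchh (probe set 1434425_at) read 7.79, 7.90, 8.49 and 9.03 on knockout arrays 1 to 4. On wildtype arrays 1 to 5 it read 9.62, 8.90, 10.17, 9.77 and 9.85. Knockout array 4 lay just above wildtype array 2, and every other knockout array lay below every wildtype array. The means were 8.30 ± 0.57 (SD, n = 4) and 9.66 ± 0.47 (SD, n = 5), a difference of -1.36 with an SE of 0.29 and a 95% interval of -2.01 to -0.71, or 2.57-fold. Its limma adjusted p was 0.0556, just short of the threshold. It passed without knockout array 4, at -1.60 and an adjusted p of 0.0422 in limma, and without wildtype array 2, at -1.55 and 0.0488. With any other single array left out it missed the threshold (limma adjusted p from 0.0756 to 0.149). With the Xist level as a covariate the difference was -1.45 with a limma adjusted p of 0.543.

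Among the type I keratins, Krt27 varied most within the knockout group. Krt27 (1449378_at), which is made in all layers of the sheath in human follicles, read 6.11, 6.67, 7.82 and 8.53 on knockout arrays 1 to 4. It read 8.62, 7.86, 9.21, 8.59 and 7.91 on wildtype arrays 1 to 5. Knockout arrays 1 and 2 stood below all others, and knockout array 4 lay inside the wildtype values. The difference was -1.16 with an SE of 0.46, from 8.44 ± 0.56 (SD, n = 5) in wildtype to 7.28 ± 1.10 (SD, n = 4) in knockout, and the limma adjusted p was 0.231. Leaving out knockout array 1 moved it to -0.76, by more than 1.5 times. The knockout values spanned 2.42 log2 units, and those of wildtype 1.35.

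Krt25 (1418173_at), a type I partner in the same cells, read 5.88, 6.51, 5.48 and 7.05 on knockout arrays 1 to 4. On wildtype arrays 1 to 5 it read 7.06, 6.39, 8.03, 6.49 and 7.26. The lowest value here was on knockout array 3, and the highest on wildtype array 3. The groups overlapped, and limma gave a difference of -0.81, an SE of 0.37 and an adjusted p of 0.289. With the Xist level as a covariate it was -0.35 with a limma adjusted p of 0.937.

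Krt28 (1430132_at), the remaining type I gene, read no higher than genes of other organs do. Its values ran from 2.57 to 3.19 over all 9 arrays, and its mean of 2.78 lay below the median of the genes of other organs. The difference was 0.15 with an SE of 0.13, and the limma adjusted p was 0.567. At such a level the values say little about Krt28 transcript in either direction.

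Among the type II keratins, Krt73 separated the groups. Krt73 (1436557_at), a keratin of the sheath cuticle in human follicles, read 3.55, 3.43, 3.75 and 3.66 on knockout arrays 1 to 4. It read 4.95, 4.01, 4.50, 4.62 and 4.11 on wildtype arrays 1 to 5. All knockout values lay below all wildtype values, which held for 1 of the 7 genes for 5.14% of all genes in this direction and for 8.28% in either. The means were 3.60 ± 0.14 (SD, n = 4) and 4.44 ± 0.38 (SD, n = 5), and the difference of -0.84 had an SE of 0.19, a 95% interval of -1.25 to -0.43 and a limma adjusted p of 0.0613. Both means lie within the levels read by genes of other organs, so the signal was dim. Without wildtype array 5 Krt73 passed, at -0.92 and a limma adjusted p of 0.0414, and with any other single array left out it did not, with values from 0.0670 to 0.154.

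Krt71 and Krt72 overlapped between the groups. Krt71 (1448457_at), the type II keratin of all sheath layers in human follicles, read 5.52, 5.97, 6.57 and 7.15 on knockout arrays 1 to 4 and 6.58, 6.21, 6.92, 6.79 and 6.50 on wildtype arrays 1 to 5. Its difference of -0.30 had an SE of 0.29 and a limma adjusted p of 0.607, with the highest value of all 9 arrays on knockout array 4. Without knockout array 1 it was -0.04, without knockout array 2 it was -0.19, without knockout array 4 it was -0.58, and with the Xist covariate it was -0.46. Krt72 (1419840_at), another cuticle keratin of the sheath in human follicles, read 4.82, 5.24, 4.88 and 5.88 on knockout arrays 1 to 4 and 5.97, 5.35, 6.14, 5.85 and 5.32 on wildtype arrays 1 to 5. Its difference of -0.52 had an SE of 0.25 and a limma adjusted p of 0.299. Knockout arrays 1 to 3 lay below all wildtype arrays for Krt72, and knockout array 4 lay inside the wildtype values.

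The order of the arrays was partly shared from gene to gene. Over the 6 genes other than Krt28, knockout array 1 was lowest for 4 and among the lowest 2 for 6, and knockout array 2 was among the lowest 2 for 4. Wildtype array 3 was highest for 4. With each group's mean taken off, the 15 pairs of these 6 genes had a median Pearson r of 0.61 and a median Spearman rho of 0.55 over the 9 arrays, given as a description with no test. Krt27 and Krt71, which can pair as type I and type II chains, had the highest r, 0.97, with a rho of 0.97, and r was 0.93 without the 2 arrays farthest from the median, knockout arrays 1 and 4. Tchh had an r of 0.90 with Krt71, 0.86 with Krt27 and 0.61 with Krt25. Over all 9 arrays Krt73 followed the others less closely, with r between 0.05 for Krt25 (rho -0.07) and 0.53 for Krt72. Without knockout arrays 1 and 4, its r was 0.47 with Tchh, 0.70 with Krt27, 0.61 with Krt71, 0.65 with Krt72 and 0.01 with Krt25. Without those arrays, Krt25 had an r of 0.17 with Krt27, 0.13 with Krt71, 0.44 with Tchh and 0.59 with Krt72. Median r over the 15 pairs was 0.55 without knockout arrays 1 and 4. All pairs share the same 9 arrays.

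The median residual spread within groups was wider for these genes than for all genes. Over the 7 genes it was an SD of 0.51, against 0.24 over all genes and 0.28 over genes above the median level. Krt28, at 0.18, was below both, and Krt73, at 0.30, was near the latter.

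**Figure D2:**
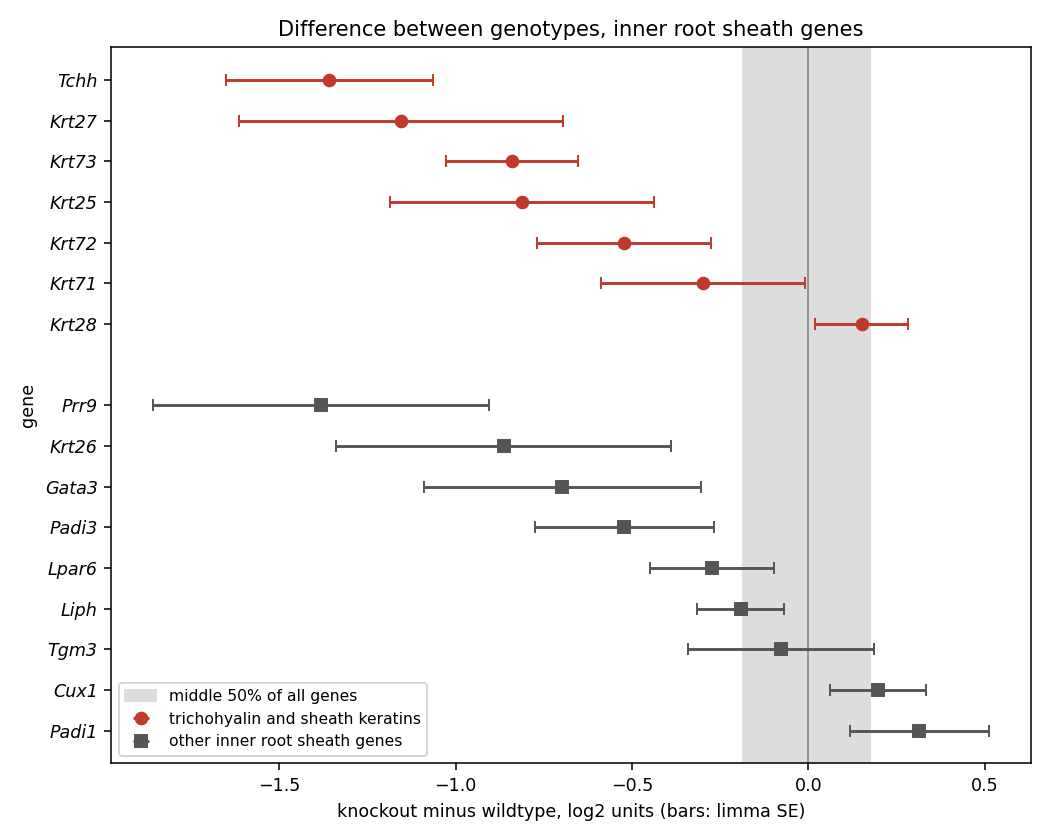
Knockout minus wildtype difference in log2 units (x axis, bars are the limma SE) for the 7 genes (circles) and for 9 other genes tied to the inner root sheath (squares), with the middle 50% of all genes in grey. Tchh at -1.36 and Prr9 at -1.38 lie farthest to the left, and Krt28 at 0.15 lies in the grey band.

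Stretches upstream of 5 of the genes are shown because these are the 5 that hold AGATAA, and 4 of them also hold TATAAA near the start. Sequences are those of RefSeq on GRCm38.p6, the 250 bases before the annotated start, and all 7 genes had an entry. That of Tchh is chr3:93442080-93442329 on the plus strand. Those on the minus strand are chr11:99322952-99323201 for Krt25, chr11:99351119-99351368 for Krt27, chr15:101743098-101743347 for Krt71 and chr15:101802361-101802610 for Krt73. Capitals mark TATAAA, the core of the TATA box, and AGATAA, a form of the site that GATA factors bind, on either strand, and no marked motif overlaps another. Gata3 is needed for the inner root sheath in mice.
Tchh: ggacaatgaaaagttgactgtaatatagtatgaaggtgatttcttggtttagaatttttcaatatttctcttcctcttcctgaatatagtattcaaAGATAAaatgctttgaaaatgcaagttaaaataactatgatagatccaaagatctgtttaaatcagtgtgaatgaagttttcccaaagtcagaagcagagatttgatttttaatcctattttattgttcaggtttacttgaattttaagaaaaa
Krt25: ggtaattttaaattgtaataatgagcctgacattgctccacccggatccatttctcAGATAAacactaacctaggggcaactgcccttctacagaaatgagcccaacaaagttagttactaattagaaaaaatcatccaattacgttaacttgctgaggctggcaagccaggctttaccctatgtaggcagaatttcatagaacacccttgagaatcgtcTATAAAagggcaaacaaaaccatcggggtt
Krt27: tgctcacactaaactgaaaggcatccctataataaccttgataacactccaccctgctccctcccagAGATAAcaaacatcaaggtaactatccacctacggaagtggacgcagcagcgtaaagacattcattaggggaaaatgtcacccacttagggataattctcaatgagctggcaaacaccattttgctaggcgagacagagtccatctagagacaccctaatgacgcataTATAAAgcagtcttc
Krt71: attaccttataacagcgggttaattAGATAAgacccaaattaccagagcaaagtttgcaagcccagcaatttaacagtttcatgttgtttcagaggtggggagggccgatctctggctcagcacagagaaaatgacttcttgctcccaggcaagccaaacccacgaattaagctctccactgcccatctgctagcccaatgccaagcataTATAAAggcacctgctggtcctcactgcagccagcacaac
Krt73: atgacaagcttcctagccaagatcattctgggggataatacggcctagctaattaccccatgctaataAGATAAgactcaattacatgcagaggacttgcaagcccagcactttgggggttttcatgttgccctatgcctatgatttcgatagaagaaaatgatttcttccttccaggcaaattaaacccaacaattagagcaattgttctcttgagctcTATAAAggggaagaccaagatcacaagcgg

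The 4 printed keratin stretches have TATAAA on the gene's own strand, starting 30 bases before the start in Krt25 and Krt73, 40 in Krt71 and 15 in Krt27. Krt28 had it 30 bases before the start, Krt72 only on the other strand at 203, and Tchh had none. AGATAA was present in 5 of 7, namely in all the printed stretches, at 154 to 225 bases before the start and on the gene's own strand each time. Of all 32851 promoter windows in the table, cut to the same length and read on both strands, 12.4% held TATAAA and 9.99% held AGATAA. A core of homeodomain sites, TAATTA, was present in 4 of 7 and in 4.84% of windows, and in Krt71 its last base is the first of AGATAA. A core of LEF and TCF sites, CTTTGA, was present in 2 of 7 and in 13.8% of windows. The motifs were chosen after the sequences and values had been seen, and a match is not a site. Aligned end to end, the 3 type I stretches were 49.8% to 55.9% identical in pairs, the 3 type II stretches 44.6% to 49.8%, and the other 15 pairs 42.6% to 51.1%.

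The position of the genes was set beside their differences because keratin genes lie in 2 clusters. In the RefSeq order the type I genes run Krt25, Krt26, Krt27 and Krt28 on chromosome 11 with Krt24 before and Krt10 after them, and the type II genes run Krt71, Krt74, Krt72 and Krt73 on chromosome 15 between Krt5 and Krt2. Krt26, the sheath keratin gene that lies between Krt25 and Krt27, differed by -0.86 with a limma adjusted p of 0.367. Of the neighbours outside the sheath genes, Krt24 differed by -0.05, Krt10 by -0.07, Krt5 by -0.34, a little farther from 0 than Krt71, and Krt2 by 0.35 with an SE of 1.16. Krt74 is a pseudogene in that annotation and was not analysed here. Over the other keratins measured in each cluster, 21 on chromosome 11 and 21 on chromosome 15, the median differences were -0.18 and -0.12, and 0 were called in either direction. Krt16 at 3.22 and Krt6b at 2.52, keratins of stressed epidermis, stood farthest above 0, with limma adjusted p values of 0.161 and 0.126. Keratins that are not of the inner root sheath lay as low as the sheath genes, with Krt79 at -1.37, Krt77 at -1.16 and Krt15 at -1.04. Their limma adjusted p values were 0.104, 0.0879 and 0.143, and Krt15 is a gene of the outer root sheath list.

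**Figure D3:**
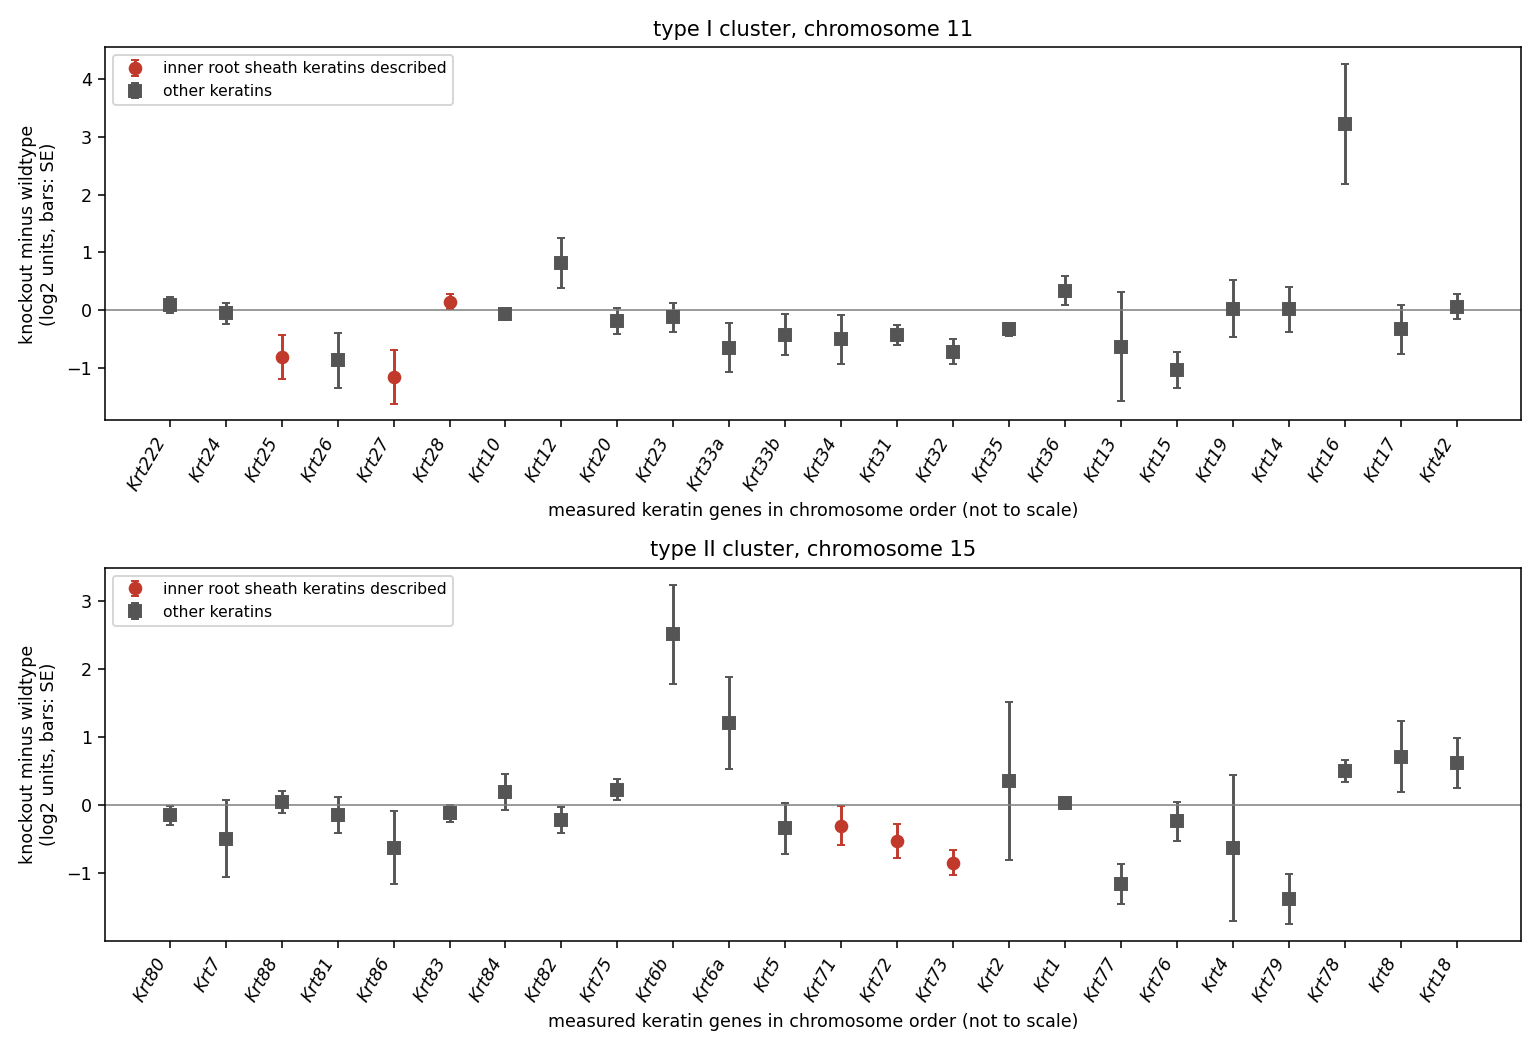
Knockout minus wildtype difference in log2 units (y axis, bars are the limma SE) for the measured keratin genes of each cluster in chromosome order. Circles are the sheath keratins described here, and squares are the other keratins, among them the sheath keratin Krt26 at -0.86. Krt25 at -0.81, Krt27 at -1.16 and Krt73 at -0.84 lie below 0, while neighbours such as Krt10 at -0.07 and Krt1 at 0.03 lie near it, Krt79 at -1.37, Krt77 at -1.16 and Krt15 at -1.04 lie as low, and Krt16 and Krt6b stand highest.

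Other genes of the inner root sheath were read from a list of 10, of which 9 were measured. None was called in either direction in limma, 1 was lower and 0 were higher at an unadjusted p of 0.05. Over all genes, 10.7% were lower and 7.08% higher at that p. Of the 9 differences 7 were below 0, where 46.5% of all genes had one, and the median was -0.27. Prr9, a proline-rich protein gene of the hair follicle, read 6.88, 7.47, 8.81 and 9.37 on knockout arrays 1 to 4 and 8.67 to 10.15 on the wildtype arrays, and differed by -1.38 (limma adjusted p 0.187). Its knockout arrays had the order of those of Tchh and Krt27, with arrays 1 and 2 lowest. Padi3, an enzyme that converts arginines of trichohyalin, differed by -0.52 with a limma adjusted p of 0.311. Its means, 4.14 in knockout and 4.66 in wildtype, lie within the levels read by genes of other organs. The genes of the list above 0 were Padi1, at 0.32 with a limma adjusted p of 0.426, and Cux1, at 0.20 with 0.469. Tgm3, a transglutaminase that cross-links trichohyalin and also acts in the epidermis, differed by -0.08. The regulator Gata3 differed by -0.70 with a limma adjusted p of 0.377.

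Lists for other follicle parts had medians nearer 0 than the 7 genes. Of 17 measured hair shaft genes, keratins and other proteins of the hair itself, 0 were called in either direction and the median was -0.33. At an unadjusted limma p of 0.05, 4 of them were lower, where 10.7% of all genes were. S100a3, a calcium-binding protein of the hair cuticle, differed by -0.92 with a limma adjusted p of 0.150. Krt32, a keratin of that cuticle in human follicles, differed by -0.72 with a limma adjusted p of 0.138, and Krt35, a shaft keratin, by -0.33 with 0.189. Krt35 read 2.12 in knockout and 2.45 in wildtype, both below the median of the genes of other organs. Krt36, at 2.75 and 2.41, was as dim. Of the keratin-associated protein genes, this list measured only Krtap3-1 and Krtap8-1. Some outside it lay as low as the sheath genes, with Krtap4-1 at -1.51 and Krtap4-2 at -1.36, and Krtap10-4 lay at -0.08. The shaft median thus does not show a smaller difference in the shaft than in the sheath. Of 11 hair matrix regulators 0 were called, 5 differences were below 0 and the median was 0.07, with Msx1 at 0.41, Wnt10a at 0.21 and Hoxc13 at 0.28. Of 10 outer root sheath and follicle stem cell genes 0 were called and the median was 0.00, with Krt15 at -1.04 and a limma adjusted p of 0.143, Fzd7 at -0.87 and Tcf7l1 at 0.46. Of 10 dermal papilla genes 0 were called, with Alpl at 0.25, Rspo3 at 0.16 and Corin at 0.24, and their list mean of 2.65 in knockout and 2.56 in wildtype lay below the median of the genes of other organs. The hair matrix list mean, 4.26 in knockout and 4.24 in wildtype, lay within the range of the genes of other organs, 2.12 to 5.07. So did several genes of the outer root sheath list. Medians near 0 in these lists therefore do not show that those follicle parts were unchanged. Whether the lists differ from the sheath genes was not tested.

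Array by array, the hair shaft list was also lowest on knockout arrays 1 and 2. There its mean read 4.41 and 4.80, both below the wildtype range of 4.84 to 5.64, while knockout arrays 3 and 4 read 5.17 and 5.34. The mean of the 7 sheath genes was 5.21, 5.51, 5.67 and 6.35 on knockout arrays 1 to 4 and 5.90 to 6.81 on the wildtype arrays. Knockout array 3 was thus within the wildtype range for the shaft list and below it for the mean of the 7 sheath genes. The list of other inner root sheath genes read 6.92 there, inside its wildtype range of 6.72 to 7.12. Krt71, at 6.57, was also inside its wildtype values on that array. Outer root sheath genes read 5.18 on both knockout arrays 1 and 2 and 5.55 and 5.65 on knockout arrays 3 and 4, and 5.13 to 5.69 in wildtype.

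Markers of cells outside the follicle epithelium also moved between sheets. Of 5 adipocyte genes 0 were called, with Adipoq at -3.06, Fabp4 at -1.52 and Car3 at -2.40, and their list mean ran from 4.23 to 5.16 in knockout and from 3.96 to 8.22 in wildtype, highest on wildtype array 3, where Tchh, Krt25, Krt27 and Krt72 were also highest of all arrays. On wildtype array 1 it was lowest of all, at 3.96, with Tchh at 9.62 and Krt73 at 4.95. Fibroblast genes read 6.04 to 8.94 in knockout and 5.72 to 7.70 in wildtype, and smooth muscle genes 3.51 to 6.16 and 3.32 to 3.76. Both were highest on knockout array 4, where the mean of the 7 sheath genes was also highest in that group. Krt73 was the exception, with 3.66 there and 3.75 on knockout array 3. Of 8 fibroblast and 6 smooth muscle genes 0 were called, with Lum at 0.91, Fbln1 at -0.09, Col1a2 at 0.52, Tagln at 1.20, Actg2 at 0.90 and Des at 0.41. Without knockout array 4 the median difference of the 7 sheath genes was -0.86. Melanocyte genes, of which 0 of 10 were called (Kit at 0.43, Tyrp1 at 0.50 and Mlana at 0.42), read 4.11 to 4.83 in knockout and 3.24 to 4.33 in wildtype. Sebaceous gland genes read 4.87 to 5.03 and 4.94 to 5.61, with 1 of 8 lower in limma, Far2, a fatty acyl-CoA reductase gene, by -1.81 with an adjusted p of 0.0200, while Plin2 at -0.96 and Mogat1 at 0.45 did not pass. Langerhans cell genes, 0 of 5 called (Cd74 at -0.38, H2-Ab1 at -0.45 and Cd207 at -0.17), read 5.29 to 5.92 and 4.53 to 7.06. Interfollicular epidermis genes, 0 of 10 called (Krt77 at -1.16, Ivl at 0.50 and Flg at -0.28), read 11.41 to 11.70 and 11.37 to 11.85. The part of these markers in the sheath results was not tested.

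**Figure D4:**
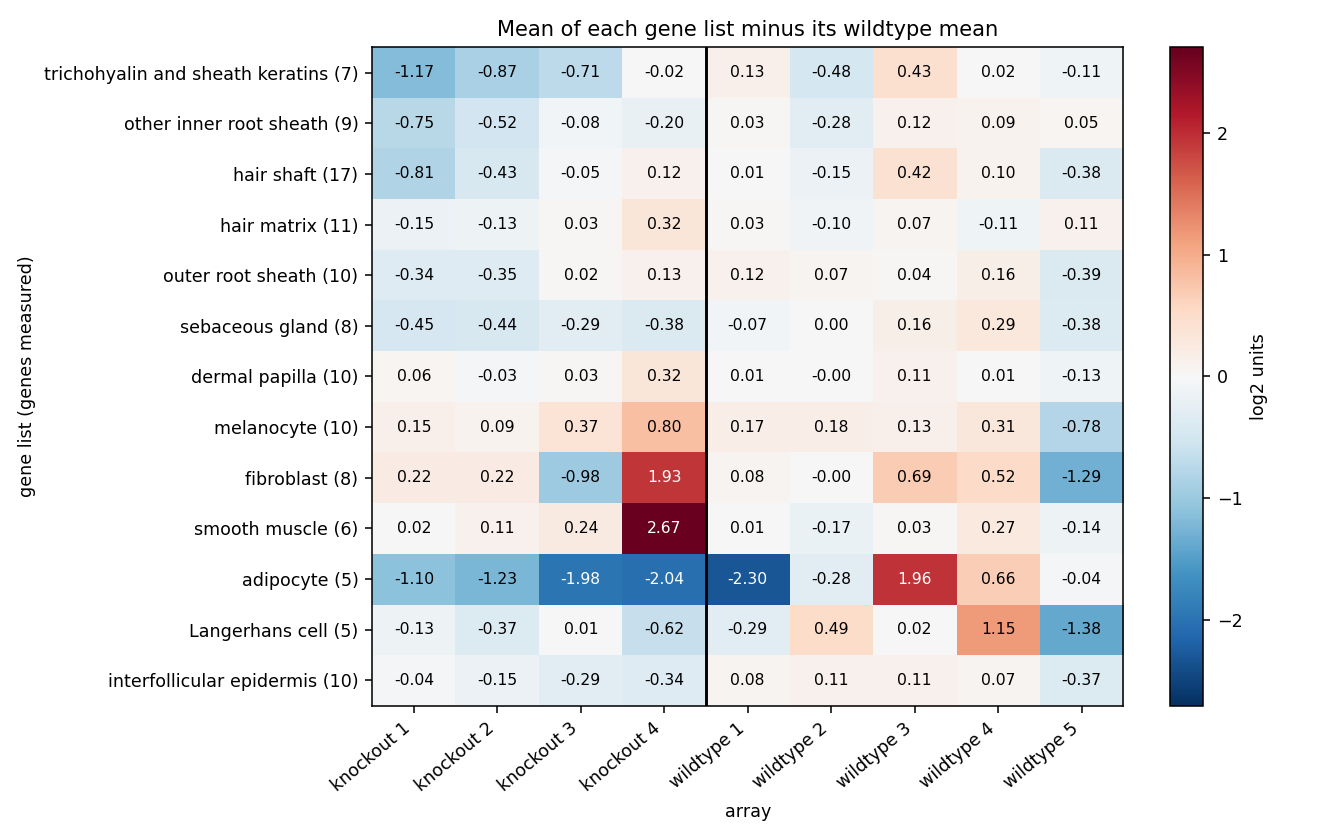
Mean of each gene list on each array minus the mean of its wildtype arrays, in log2 units, with arrays in columns and lists in rows (genes measured in brackets, blue below and red above the wildtype mean). The sheath genes read -1.17, -0.87 and -0.71 on knockout arrays 1 to 3 and -0.02 on knockout array 4, where smooth muscle reads 2.67.

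The genes whose group-centred values were most like the mean of the 7 were sought among the 9091 other genes above the median level. The 10 with the highest Pearson r over the 9 arrays were Krtap17-1 at 0.94, Sema6a at 0.94, Sh2b2 at 0.93, Prr9 at 0.92, Krtap4-2 at 0.92, Gm11567 at 0.91, Krtap4-6 at 0.91, Gprc5d at 0.91, Ctse at 0.91 and Krtap1-5 at 0.91. They were picked for this likeness, so it has no test. Keratin-associated protein genes, which encode the matrix of the hair shaft, made up 4 of the 10, and their close copies may share probes. Without knockout arrays 1 and 4, the values of r ran from 0.80 for Krtap1-5 to 0.91 for Sh2b2. Krtap4-2 differed by -1.36 between the groups and Krtap17-1 by -1.10, with limma adjusted p values of 0.159 and 0.260. Over the 9097 genes kept by the filter on level the median difference was -0.10, against 0.02 over all genes. The share over all genes is thus not an equal background for genes above the median level. A difference below 0 was found for 8 of the 10, where 46.5% of all genes, at any level, had one. The other 2 were Sema6a, at 0.34 with an adjusted p of 0.246, and Sh2b2, at 0.15 with 0.576. Among the other inner root sheath genes, Padi3 ranked 27 and Krt26 ranked 28 by the same measure, with an r of 0.86 for both, below the shaft keratin Krt86 at rank 11. Liph had an r of 0.04, Gata3 of -0.16, Cux1 of -0.30 and Tgm3 of -0.76, at rank 8891 of 9091.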

How the data were processed

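Per the labels' protocols, 100 ng of total RNA per sample was amplified and labelled. Values for 45037 probe sets on 9 arrays were used as deposited, in log2 units, a scale taken from their range of 1.43 to 14.46. The submitters' processing notes name affy, and no source used here gives the background correction or normalization. No 2 arrays of a group were copies. The number of arrays limits precision.

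Probe sets were named by the platform annotation (34945 with 1 gene, 932 with several, 9160 not listed), and 34741 of the first matched the gene table. The probe set with the highest mean stood for its gene. Differences came from limma 3.58.1 under R 4.3.3, with lmFit and eBayes on genotype alone, and p was adjusted over 18193 genes by Benjamini-Hochberg. The code was tested on simulated data. Groups and replicate numbers came from titles. Promoters were aligned with Biopython 1.88 (match 2, mismatch -1, gap open -5, extension -1).

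The 7 genes and the lists were chosen with earlier results of these data known. Named genes were the 7, up to 3 per list by smallest p, and the 10 most alike. The other keratins, Gata3, Tgm3, Padi1, Liph and Cux1 were chosen after their values were seen. Alternatives were other probe set summaries, a level filter, 2 normalizations, other variance models, array weights, a replicate block, Xist as covariate and each array left out. Leaving out 2 arrays together was added after seeing the data.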

Additional observations from a re-analysis of the deposited data

Results flagged for a closer look

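None of the 7 sheath genes had an array far from the rest of its group, by the gap to the nearest array as a share of the group's range. Among the means of the other lists, 5 of 40 groups over genes and lists had one, and chance flags about 1 in 20. Smooth muscle genes on knockout array 4 read 6.16 against 3.51 to 3.72 on the other knockout arrays (gap share 0.918). On wildtype array 5, interfollicular epidermis genes read 11.37 against 11.82 to 11.85 (0.925), melanocyte genes 3.24 against 4.16 to 4.33 (0.837) and outer root sheath genes 5.13 against 5.57 to 5.69 (0.783). On wildtype array 2, the other inner root sheath genes read 6.72 against 7.03 to 7.12 (0.768), and 6 of the 7 sheath genes, all but Krt72, were also lowest of the wildtype arrays there.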

How the results depend on the processing

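Over 20 alternatives, Tchh, Krt25, Krt27, Krt71, Krt72 and Krt73 kept a negative difference and Krt28 a positive one wherever they were tested, and 0 genes were called higher. The number called lower, 0 in the main analysis, was 1 with the filter on level, which leaves fewer genes to adjust over (Tchh), 1 with trend and robust settings (Tchh), 3 with array weights (Tchh, Krt27 and Krt73) and 1 without knockout array 4 and wildtype array 5 together (Tchh). Leaving out 1 array gave 0 to 1. The replicate block gave 1, Tchh at -1.31 with a limma adjusted p of 0.0493, but same-numbered arrays deviated together with r of -0.21, -0.10, -0.21 and 0.18, so the numbers are not taken to pair the mice. Beyond these settings the cause was not tested. The adjusted p of Tchh ran from 0.00379 to 0.543 and that of Krt73 from 0.00952 to 0.451. The median difference of the 7 genes ran from -0.95 to -0.56. The filter on level removes Krt28 and Krt73. Genes called lower and higher over all genes were 133 and 93, and 932 and 712 with array weights, 76 and 43 with the replicate block, 1 and 8 with the Xist covariate, 345 and 153 over all probe sets and 143 and 147 with quantile normalization. They were 165 and 98 of 9097 genes with the filter on level, 116 and 92 with trend and robust settings, and 102 and 99 without those 2 arrays together. With 1 array left out, those called lower ran from 33, without knockout array 2, to 181, without knockout array 1, and those called higher from 29, without knockout array 2, to 127, without knockout array 3.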
